A study of Mus musculus with 2756 samples.

Results

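N4d.late2 and N4d.early2 are 2 clusters of neurons that the study's authors defined among single cells of the embryonic mouse neocortex. The comparison set N4d.late2 against N4d.early2 within each injection day, over the cells collected 96 h after injection. It held 517 cells, 195 in N4d.late2 and 322 in N4d.early2, of 1002 cells at 96 h and 2756 in the series. The embryos had been injected with FlashTag, a fluorescent dye taken up by cells that divide at the ventricular surface at that moment, at embryonic day 12, 13, 14 or 15 (E12 to E15). Presumptive somatosensory cortex was dissected, the brightest labelled cells were sorted, and each was sequenced after full-length cDNA synthesis on a C1 chip. All groups shared this treatment; the labels name no strain, sex, litter or animal, and no group carried a genetic change. Members were taken by cluster label, injection day and collection time alone.

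Raw read counts were summed over the cells of a cluster on an injection day, which gave 8 sums (4 days, 2 clusters), and a day served as the unit that repeats. N4d.late2 held 43, 53, 29 and 70 cells at E12, E13, E14 and E15, and N4d.early2 held 76, 145, 47 and 54. The sums held 5.72 to 64.1 M reads. Because the authors made the clusters from the expression of these same cells, a gene past the threshold shows that a difference was steady over the 4 days, and is not independent evidence that the clusters differ. No label says that the days came from separate cultures or litters, so the p-values reflect how these 8 sums vary, which may be technical. At 96 h the cell titles carried 2 run codes of unstated meaning, one for E12 and E13 and the other for E14 and E15.

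Projection neurons of the neocortex are born from radial glia that divide at the ventricle, directly or through basal progenitors. The young neuron migrates to the cortical plate, guided in part by reelin signalling, and extends an axon, whose growth depends on tubulin, stathmins and growth cone proteins. Neurons born early settle in deep layers and those born later in upper layers. Transcription factors such as Tbr1 and Bcl11b mark deep layers, and Cux1 and Pou3f2 mark upper layers.

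Both clusters had the marker profile of excitatory cortical neurons. Neurod2, a transcription factor of these neurons, had a mean of 765 ± 89.0 CPM (reads per M reads of the tested genes, scaled by TMM; SD, n = 4 days) in N4d.early2 and 810 ± 44.7 in N4d.late2. The 16 upper-layer markers summed to 3948 to 5056 CPM in N4d.early2 and 3917 to 6030 CPM in N4d.late2. The 19 measured deep-layer markers summed to 432 to 779 and 503 to 1292 CPM. Vesicular transporter Slc17a7, a marker of mature glutamatergic neurons, was at 1.73 ± 1.88 and 1.14 ± 0.58 CPM, so neither cluster carried it above a trace. The 3 measured markers of microglia and blood, of 12 on the list, summed to at most 6.19 CPM in any sum, the 6 of 12 for vessels and meninges to at most 36.6 CPM and the 7 of 9 for Cajal-Retzius cells to at most 32.9 CPM. The other markers of these lists were not analysed here.

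Cells of N4d.late2 gave fewer reads and a larger mitochondrial share on every injection day. Median reads per cell in N4d.late2 were 215181 at E12, 230461 at E13, 186168 at E14 and 216350 at E15. In N4d.early2 they were 477866, 439569, 403585 and 387130 in the same order. The ratio was thus 0.45 to 0.56, and the groups of medians did not overlap. Median mitochondrial share was 9.31, 7.03, 8.43 and 7.11% of a cell's reads in N4d.late2 and 3.84, 4.15, 4.44 and 4.50% in N4d.early2, a ratio of 1.58 to 2.42. An exact two-sided sign-flip permutation test over the 4 days gave p = 0.125 for each measure, the smallest that 4 pairs allow. With cells thinned to 100000 reads, the median number of detected genes was 2394, 2708, 2575.5 and 3529 in N4d.late2 against 3304, 3294, 3469 and 3332.5 in N4d.early2, so E15 did not share the lower number of the other days. Unthinned medians were 3149, 3377, 3156 and 4313.5 against 4348.5, 4304, 4522 and 4401. Thinning left out 14 cells of N4d.late2 and 2 of N4d.early2 that had fewer reads.

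**Figure D1:**
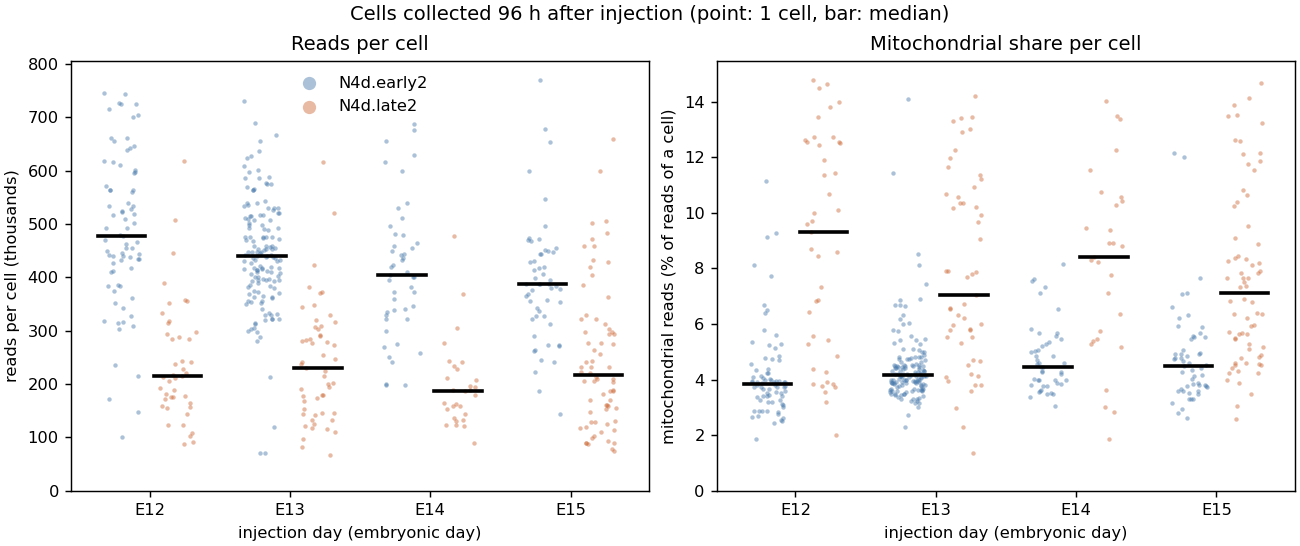
Reads per cell (left) and mitochondrial share of a cell's reads (right, percent) for each cell of N4d.early2 (blue) and N4d.late2 (orange) by injection day, with medians as bars. The late2 medians lie at 186168 to 230461 reads, below all early2 medians, and at 7.03 to 9.31% mitochondrial reads, above all of them.

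Of the cells in the 2 clusters, N4d.late2 made up 36.1% at E12 (95% Clopper-Pearson interval 27.5 to 45.4), 26.8% at E13 (20.7 to 33.5), 38.2% at E14 (27.2 to 50.02) and 56.5% at E15 (47.3 to 65.3). The intervals cover counting error only. Each day was a single sample, so the shares were not tested.

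Of 8598 genes tested, 48 were higher in N4d.late2 and 62 were lower at an adjusted p under 0.05 (edgeR quasi-likelihood test paired by injection day, Benjamini-Hochberg). These are 0.558% and 0.721% of the genes tested, 1.28% together. All 110 differed in the same direction on each of the 4 days. For 96 of them the 4 sums of one cluster did not overlap the 4 of the other. The paired test chose these genes on the same sums, so this steadiness is no added support. Its share over all genes tested is not given here. Log2 differences (late2 minus early2) ran from 0.45 to 3.30 among the higher genes, with a median of 1.20, and from -1.62 to -0.48 among the lower genes, with a median of -0.91. Of all 8598 genes tested, 4012 had a positive difference. The higher genes included 7 encoded in mitochondria, and the lower ones included 10 ribosomal protein genes. Called genes had high levels, with a median of 378 CPM among the higher and 621 CPM among the lower. Over all genes tested the median was 49.3 CPM. Shares of called genes in the lists below are set beside all genes tested and were not matched for level. The number of calls depended on all 4 days: without E12 it was 8 higher and 1 lower, without E13 0 and 0 (1154 genes at an unadjusted p under 0.05), without E14 8 and 1, and without E15 8 and 0. Restricting both clusters to cells with at most 6% mitochondrial reads left 1 higher and 0 lower (454 genes at an unadjusted p under 0.05), and these sums held only 9 to 28 cells of N4d.late2.

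Some of the named higher genes encode transcription factors and other regulators. The list of chromatin and temporal factors had 2 of 24 tested genes called higher, Zbtb20 and Nfib, and a median log2 difference of 0.20. Over all genes tested these were 0.558% and -0.07. Zbtb20, a zinc finger repressor active in the developing cortex and hippocampus, stood at 312, 624, 928 and 1322 CPM in N4d.late2 (E12 to E15) and at 174, 242, 391 and 595 CPM in N4d.early2. The level climbed with injection day in both clusters, so the groups overlapped, while late2 exceeded early2 on each day. The log2 difference was 1.15 (SE 0.16, adjusted p = 0.018). Nfib, a nuclear factor I protein, had 2934, 2938, 2689 and 2346 CPM against 1789, 1523, 1262 and 1537, with no overlap and a log2 difference of 0.84 (SE 0.11, adjusted p = 0.018). Meis2, a homeobox factor, had 410, 359, 849 and 702 CPM against 100, 94.9, 241 and 425. Its difference was 1.63 (SE 0.24, adjusted p = 0.019), and the E12 and E13 late2 sums lay below the E15 early2 sum. Sox11, a factor of newborn neurons, differed by 0.45 (SE 0.08, adjusted p = 0.036), from 4853 to 8025 CPM in late2 and 3898 to 5522 in early2. The long noncoding RNA Mir99ahg, host of a microRNA cluster, had 286, 450, 709 and 634 CPM against 75.8, 91.5, 84.0 and 199, a difference of 2.24 (SE 0.25, adjusted p = 0.0087). Ccnd2, cyclin D2, differed by 1.64 (SE 0.30, adjusted p = 0.043), with 126 to 314 CPM against 49.7 to 65.6.

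The other named higher genes had varied roles. In the lists of transmitter receptors, axon guidance and cell adhesion, 1 of 14, 1 of 24 and 0 of 24 tested genes were called higher, beside 0.558% of all genes tested. Gria2, the AMPA receptor subunit that limits calcium entry, had 3699, 3296, 5077 and 3862 CPM in N4d.late2 and 1507, 1336, 1668 and 2285 in N4d.early2. The clusters did not overlap, and the log2 difference was 1.24 (SE 0.13, adjusted p = 0.0087). Of the 14 tested members of the list of transmitter receptors, Gria2 was the single one past the threshold, and the list's median difference was 0.09. Trim9, a brain ubiquitin ligase acting in axon branching, had 106, 123, 140 and 144 CPM against 28.8, 16.9, 36.9 and 54.6, a difference of 2.01 (SE 0.38, adjusted p = 0.043). Nfasc (neurofascin, an adhesion protein of the axon initial segment), Lsamp (a membrane-anchored adhesion protein) and Synj1 (a phosphatase of synaptic vesicle recycling) differed by 1.46, 1.52 and 1.48, each at an adjusted p of 0.044. Plxna2, a semaphorin receptor, was the 1 called among 24 tested axon guidance genes, at 0.87 (SE 0.17, adjusted p = 0.048); 23 of the 24 had a positive difference, and the list's median was 0.54 against -0.07 over all genes tested. Ankrd6, an ankyrin repeat protein of Wnt signalling, had 58.1 to 172 CPM against 14.3 to 27.5 and differed by 2.38 (SE 0.45, adjusted p = 0.044). Pabpn1, a nuclear poly(A)-binding protein, differed by 1.68 (SE 0.25, adjusted p = 0.019), and Mbtps1, a protease of the Golgi, by 1.55 (SE 0.30, adjusted p = 0.044).

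Of 28 tested genes of the growing axon and its microtubules, 6 were called lower in N4d.late2, beside 0.721% of all genes tested. Gap43, a growth cone protein, had 195, 136, 217 and 269 CPM in N4d.late2 against 475, 447, 510 and 498 in N4d.early2. Every late2 value lay below every early2 value, and the log2 difference was -1.28 (SE 0.19, adjusted p = 0.022). Stmn2, a stathmin that binds tubulin in growing neurites, had 714, 790, 995 and 869 CPM against 2227, 2148, 1733 and 1635, a difference of -1.20 (SE 0.16, adjusted p = 0.018). The 6 called were Gap43, Stmn1, Stmn2, Stmn4, Tubb3 and Map1b, and 0 were called higher. A negative difference was found in 22 of the 28, and the median was -0.41 against -0.07 over all genes tested. Of all 8598 genes, 4012 were positive. Tubb3, a neuronal tubulin, stood at 1246 to 1615 CPM in late2 and 1851 to 2401 in early2. Doublecortin (Dcx), another member that binds microtubules, had 1565 ± 159 CPM in late2 and 1526 ± 300 in early2 and was not called (log2 difference 0.05).

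On chromosome 16, Lsamp, Gap43 and Zbtb20 lie in that order in the GENCODE M21 annotation of GRCm38, at chr16:39984361-42181679, chr16:42248442-42340651 and chr16:42875881-43642602. Gap43 is on the minus strand and the others are on the plus strand. Gap43 was thus lower in N4d.late2 between neighbours that were higher.

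Dab1, the intracellular adaptor of reelin signalling in migrating neurons, had 486, 329, 557 and 420 CPM in N4d.late2 and 852, 755, 768 and 811 in N4d.early2, a log2 difference of -0.86 (SE 0.16, adjusted p = 0.044) without overlap. It was the single called member among 15 tested genes of migration and reelin signalling, whose median was 0.02. Over all genes tested, 0.721% were called lower. Dok5, a docking protein of receptor tyrosine kinases in neurons, had 180, 255, 128 and 142 CPM against 442, 479, 520 and 371 and differed by -1.40 (SE 0.22, adjusted p = 0.024).

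**Figure D2:**
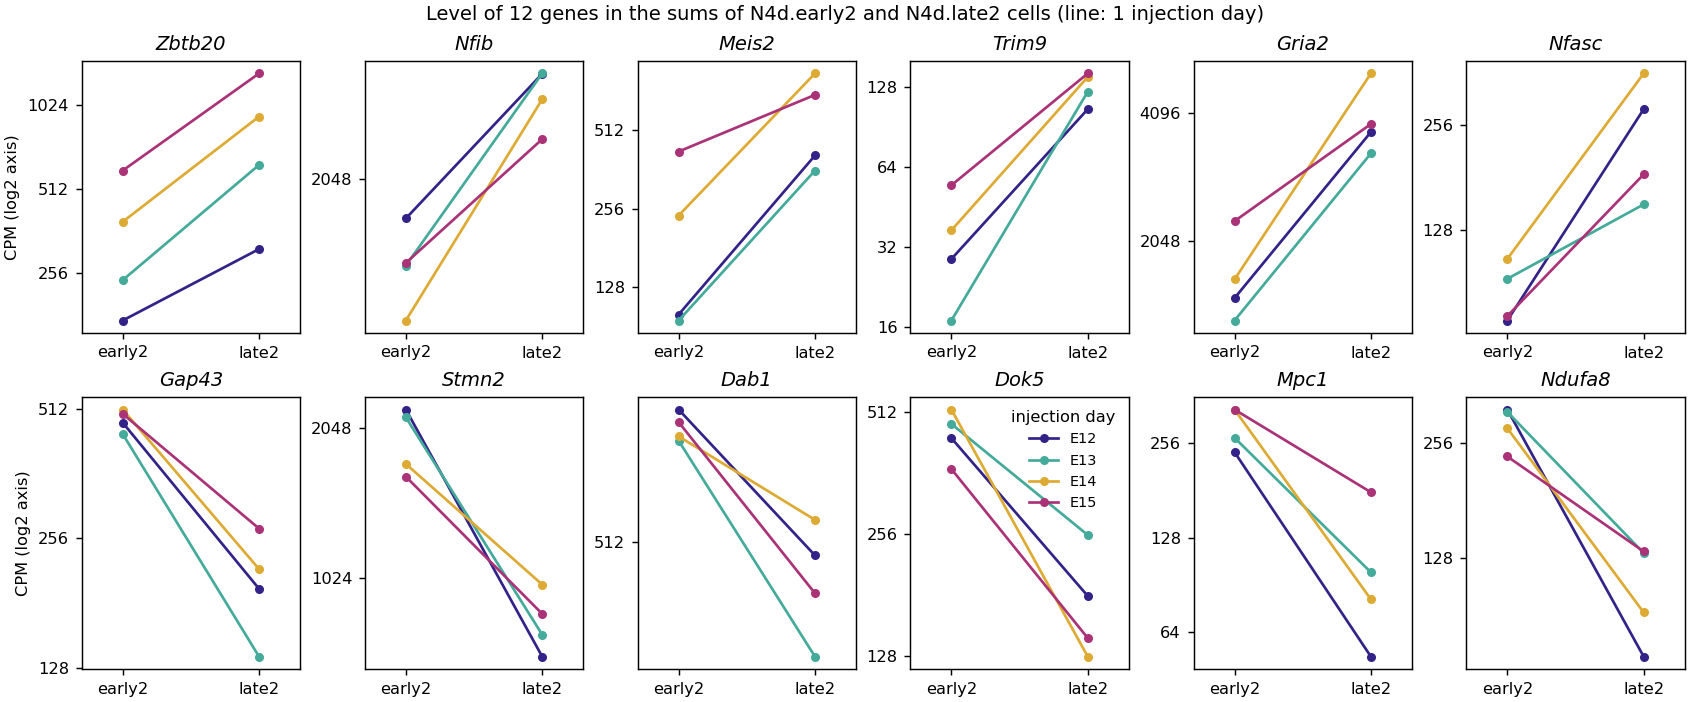
CPM on a log2 axis of 6 genes higher (top) and 6 genes lower (bottom) in N4d.late2, with 1 line for each injection day from the early2 sum to the late2 sum. All 48 lines keep the direction of their gene, and Zbtb20 climbs from 174 to 595 CPM across days in early2 and from 312 to 1322 CPM in late2.

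Among tested genes, 5 of 36 of the respiratory chain and 8 of 65 of the ribosome were called lower, beside 0.721% of all genes tested. Among mitochondrially encoded genes 7 of 12 were called higher, beside 0.558% of all genes tested. Mpc1, a subunit of the mitochondrial pyruvate carrier, led the lower genes by size, with 53.3, 99.2, 81.3 and 179 CPM in N4d.late2 against 240, 267, 329 and 328, a log2 difference of -1.62 (SE 0.27, adjusted p = 0.034). Ndufa8, a subunit of respiratory complex I, differed by -1.44 (SE 0.27, adjusted p = 0.043), from 71.2 to 133 CPM against 235 to 312. All 36 tested nuclear genes of the respiratory chain had a negative difference, 5 of them called, with a median of -0.53. The 65 ribosomal protein genes of the list behaved likewise: all were negative, 8 were called, and the median was -0.60. In the glycolysis list 14 of 16 were negative with a median of -0.53, and 0 were called. Of the 12 tested mitochondrially encoded genes, 7 were called higher, among them mt-Nd1 with 5220 to 8192 CPM against 2873 to 3803 (log2 difference 1.01, SE 0.10, adjusted p = 0.0087).

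The remaining named lower genes, ordered by size, were Nenf (a secreted neurotrophic factor), Dctn3 (a dynactin subunit), Nop10 (a component of small nucleolar ribonucleoproteins), Acot7 (a brain acyl-CoA thioesterase), Ndrg1, Sh3bgrl3 and Crip2 (a LIM-domain protein). Their log2 differences ran from -1.49 for Nenf to -1.18 for Crip2, with adjusted p from 0.018 for Nop10 to 0.050 for Acot7, Nenf and Sh3bgrl3, each still under the threshold before rounding.

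Of 6 tested RNAs that stay in the nucleus, 4 were called higher in N4d.late2, beside 0.558% of all genes tested, and all 6 were positive. Malat1 had 10501 to 13411 CPM against 7175 to 9466 (log2 difference 0.59, SE 0.07, adjusted p = 0.0087) and did not overlap between clusters. Xist, the RNA that coats the inactive X chromosome of females, had 784, 1463, 219 and 944 CPM against 295, 637, 102 and 324, so both clusters were high on the same days while late2 was above early2 on each day (1.32, SE 0.15, adjusted p = 0.0087). Kcnq1ot1 differed by 1.57 (SE 0.28, adjusted p = 0.036) and Meg3 by 1.01 (SE 0.19, adjusted p = 0.043). Kcnq1ot1 is antisense to Kcnq1, and whether counting used the strand is not given in the sources used here, so reads of the pair cannot be told apart. N4d.late2 cells also had the higher mitochondrial share and lower read number given above. The mitochondrial share counts the same reads as the mitochondrially encoded genes. The part of share or read number in the differences of nuclear, mitochondrial and ribosomal transcripts was not tested.

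In the cells with at most 6% mitochondrial reads, the groups of called genes kept unequal parts of their differences. These cells, 71 of N4d.late2 and 286 of N4d.early2, are a subset of those that chose the genes, so equal sign is no independent support. Over all tested genes the median log2 difference was -0.07 in all cells and -0.26 in this subset. The median of the 7 mitochondrially encoded genes was 0.83 in all cells and 0.09 in this subset. The subset was chosen by mitochondrial share, so the fall of these 7 genes was set by the choice of cells. The 10 ribosomal protein genes went from -0.83 to -0.38 and the 5 respiratory chain genes from -0.91 to -0.26, the median of all tested genes. Over the whole lists, 65 ribosomal protein genes went from -0.60 to -0.14 and 36 respiratory chain genes from -0.53 to -0.20. Both list medians in this subset were less negative than that of all tested genes. The 37 genes called higher outside the mitochondrial and nuclear RNA groups had medians of 1.29 and 1.11, and 23 of them kept at least 75% of their difference. For the 6 microtubule and axon growth genes the medians were -0.89 and -0.71, or -0.82 and -0.45 relative to all tested genes. These 6 were picked by their calls in all cells. The whole list of 28 tested genes had medians of -0.41 and -0.37, beside -0.07 and -0.26 over all tested genes. Further cells were limited both to at most 6% mitochondrial reads and to 100000 to 400000 reads (52 of N4d.late2 and 88 of N4d.early2). There the 37 genes had a median of 0.80 with 34 still positive, and the 6 axon growth genes had -0.64. The 10 ribosomal protein genes had -0.54 and the 5 respiratory chain genes -0.59, all still negative. Relative to all tested genes these were -0.30 and -0.36, beside -0.41 for the axon growth genes. The whole lists in the cells limited in both lay closer to the median of all tested genes, -0.23. Their medians were -0.26 for 65 ribosomal protein genes, -0.25 for 36 respiratory chain genes and -0.30 for 28 axon growth genes.

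Among single genes, Zbtb20 differed by 1.22 in this subset, Meis2 by 1.69, Trim9 by 2.48, Gria2 by 0.94, Gap43 by -1.28 and Stmn2 by -0.91, none of them past the threshold there. Nfib, at 0.99 (adjusted p = 0.022, edgeR), was the 1 gene that was. Xist differed by 0.21 and Meg3 by 0.14. In cells of 100000 to 400000 reads of any mitochondrial share, 8 of the 48 higher genes and 0 of the 62 lower genes had a difference smaller by more than 1.5 times. Ccnd2 fell from 1.64 to 0.60 there (adjusted p = 0.68) and to 0.29 in the cells limited in both. Meis2 had 0.97 (adjusted p = 0.13) and 1.02, and Zbtb20 0.75 (adjusted p = 0.31) and 0.83. Lsamp, Pabpn1, Plxna2 and Sox11 had 0.98, 1.08, 0.53 and 0.30 in cells of 100000 to 400000 reads, none past the threshold, and mt-Rnr2 had 0.38 and remained past it. Without scaling by TMM, Zbtb20 in the subset had 298, 537, 1228 and 1141 CPM in N4d.late2 and 154, 227, 382 and 634 in N4d.early2, late2 again being higher on each day. Xist had 324, 852, 44.2 and 564 CPM against 252, 571, 103 and 316, and at E14 the direction turned.

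**Figure D3:**
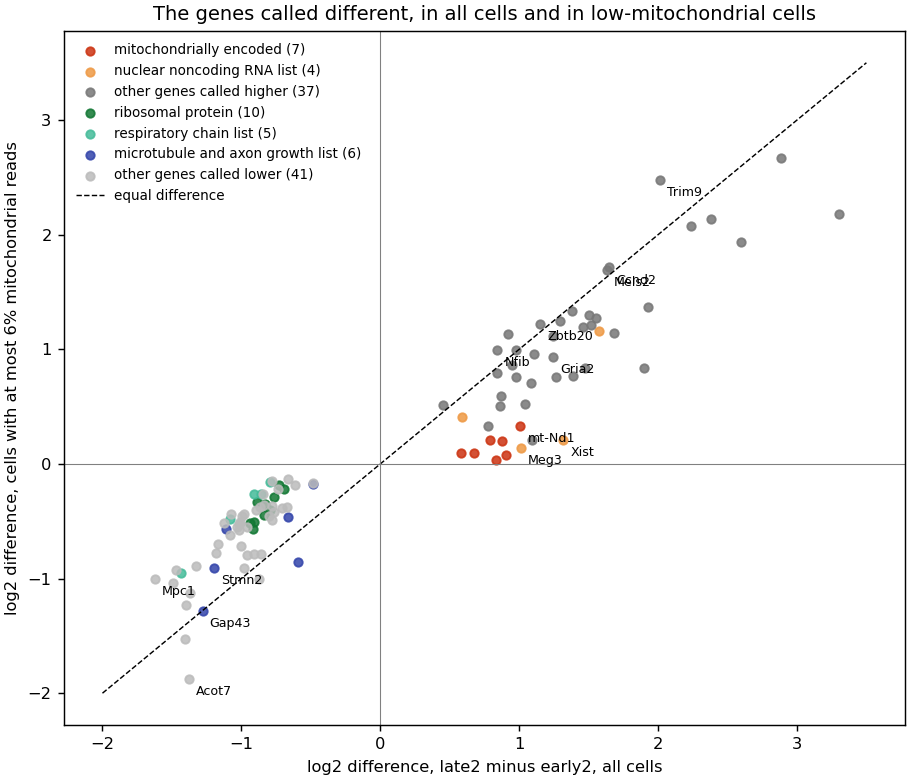
Log2 difference (late2 minus early2) of the 110 called genes in all cells (horizontal) and in cells with at most 6% mitochondrial reads (vertical), coloured by group; the dashed line marks equal values. Mitochondrially encoded genes lie near 0 on the vertical axis (median 0.09), which was set by choosing those cells by mitochondrial share. Meis2, Zbtb20 and Gap43 lie close to the line, and Trim9 lies above it.

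Summed progenitor markers were higher in N4d.late2 on each day and summed interneuron markers on 3 of the 4 days, although 0 of their genes were called. The 16 apical progenitor markers summed to 396, 878, 996 and 1821 CPM in N4d.late2 and 202, 242, 762 and 716 in N4d.early2. Fabp7, a fatty acid-binding protein of radial glia, gave much of the day pattern, with 73.0, 226, 253 and 705 CPM against 45.6, 36.1, 334 and 253. Among 11 tested apical progenitor genes 10 were positive, with a median of 1.00. For the 9 tested basal progenitor genes the median was 1.74, and 7 were positive; Insm1, a zinc finger factor of these cells, had 101, 113, 155 and 103 CPM against 29.0, 38.2, 34.4 and 77.9 (log2 difference 1.49, SE 0.39, adjusted p = 0.098). Interneuron markers summed to 825, 507, 248 and 397 CPM against 464, 224, 250 and 160. Erbb4, a neuregulin receptor of interneurons, had 42.7 to 126 CPM against 5.11 to 41.4 (1.97, SE 0.51, adjusted p = 0.091). Astrocyte markers, among them Slc1a3, summed to 80.8, 395, 382 and 1040 CPM against 98.99, 148, 268 and 498, with Gfap at 1.13 CPM or less in every sum. The part of such transcripts in the called differences was not tested.

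Layer markers were not called in either direction. Mef2c, a factor on the upper-layer list, was closest, at 520 to 1170 CPM in N4d.late2 against 1104 to 1346 (log2 difference -0.67, SE 0.17, adjusted p = 0.089). Bcl11b, which marks deep-layer neurons that project below the cortex, had 325, 129, 8.18 and 85.8 CPM against 104, 37.7, 49.2 and 21.3, so that E14 ran against the other days. Tbr1 had 171 to 352 CPM against 105 to 231 (0.81, SE 0.26, adjusted p = 0.16). Pou3f3, the other upper-layer member with a high level, differed by 0.29 (adjusted p = 0.37). The medians were 0.18 over 13 tested upper-layer and 0.30 over 9 tested deep-layer genes, and 0.19 and -0.12 in cells with at most 6% mitochondrial reads.

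**Figure D4:**
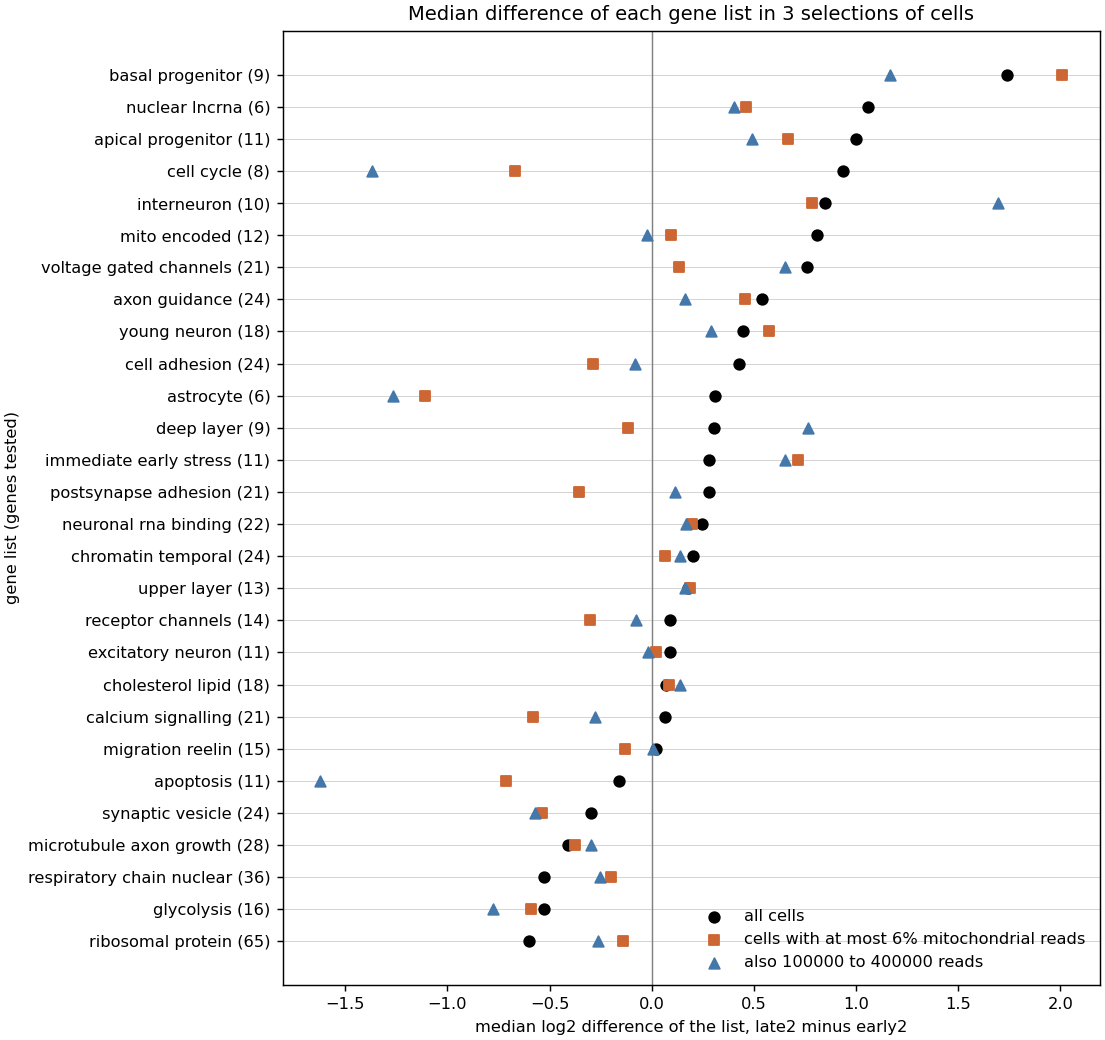
Median log2 difference (late2 minus early2) of each gene list with at least 6 tested members, in all cells (circles), in cells with at most 6% mitochondrial reads (squares) and in those that also had 100000 to 400000 reads (triangles). Ribosomal protein genes lie at -0.60, -0.14 and -0.26, mitochondrially encoded genes at 0.81, 0.09 and -0.02, and young neuron markers at 0.45, 0.57 and 0.29.

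The functional lists below held 0 calls each, apart from Gria2 on the receptor list, beside 1.28% of all genes tested. Voltage-gated channels had 19 of 21 tested genes positive and a median of 0.76 with 0 calls (0.13 in cells with at most 6% mitochondrial reads), Scn3a (a sodium channel of the embryonic brain) lying at 0.94 (SE 0.23, adjusted p = 0.075) and Cacna2d1, a calcium channel subunit, at 0.94 (SE 0.24, adjusted p = 0.095). Cell adhesion genes had a median of 0.43, with 20 of 24 positive, and Chl1 differed by 0.59 (adjusted p = 0.22) and Ncam1 by 0.09 (adjusted p = 0.78). In cells with at most 6% mitochondrial reads the median of the cell adhesion list turned to -0.29, that of the postsynapse list to -0.35 and that of the receptor list to -0.30, beside -0.26 over all tested genes. Synaptic vesicle genes went the other way, with 16 of 24 negative and a median of -0.30. Over all genes tested, 4012 of 8598 were positive. Neuronal RNA-binding genes had a median of 0.25 and those of the postsynapse 0.28, both with 0 calls. Cell cycle genes had a median of 0.94 over 8 tested members, Mcm4 and Tyms at 1.23 and 0.92, with 0 calls, and a median of -0.67 in cells with at most 6% mitochondrial reads. Cholesterol genes lay at 0.07, apoptosis genes at -0.16 and immediate early and stress genes at 0.28, again with 0 calls in each.

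Levels in other clusters give a scale for these differences; they are descriptions, in CPM of the same genes without TMM scaling. At 24 h after injection, the sums of N1d.early and N1d.late neurons (33 to 169 cells each) had 4117 to 6448 CPM of Nfib, above all 8 sums at 96 h, and 7557 to 12124 of Sox11, whose lower end lay within the range of N4d.late2. Gap43 stood at 88.3 to 356 CPM in those sums, Stmn2 at 144 to 582, Dab1 at 13.8 to 196 and Dok5 at 11.7 to 55.5, all below the lowest N4d.early2 value of the gene. N4d.late1 at E14 (135 cells) had a median of 256091 reads and 7.36% mitochondrial reads per cell. At E14 these medians were 186168 and 8.43% in N4d.late2 and 403585 and 4.44% in N4d.early2. The part of read number or mitochondrial share in the levels below was not tested. Levels in N4d.late1 were 894 CPM of Nfib, 300 of Zbtb20, 172 of Meis2, 472 of Gap43, 1831 of Stmn2 and 552 of Dab1. In the E14 late2 sum, on the same unscaled CPM, these genes stood at 2648, 914, 836, 214, 980 and 548. N4d.early1 at E12 (21 cells) had 3992 CPM of Nfib, 676 of Zbtb20, 682 of Gap43 and 2248 of Stmn2.

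The labels' predicted differentiation score (pseudo.differentiation.pred), whose derivation is not given in the sources used here, had medians per sum of -0.196 to 0.398 in the N1d sums and 1.99 in N4d.late1 at E14. Its mean over days was 1.18 ± 0.27 (SD, n = 4) in N4d.late2 and 1.57 ± 0.15 in N4d.early2, lower in late2 on all 4 days (exact two-sided sign-flip permutation p = 0.125, the smallest possible). The labels' birthdate score at 96 h (pseudo.birthdate96h) was 0.73 ± 0.02 in N4d.late2 and 0.61 ± 0.01 in N4d.early2, higher in late2 on all 4 days (same sign-flip test, p = 0.125). Medians of the predicted birthdate score (pseudo.birthdate.pred) were 0.146, 0.58, 0.995 and 1.64 in N4d.late2 (E12 to E15). In N4d.early2 they were -0.001, 0.207, 0.808 and 1.21.

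The next question was whether the difference between the clusters changed with injection day. With edgeR, 0 of 8598 genes (0%) passed the threshold for a linear change per day, and 231 had an unadjusted p under 0.05. DESeq2 called 11, and the signed difference (late2 minus early2) rose with day in 8 of them and fell in 3. Since the earlier and later pairs of days had different run codes, day and run cannot be told apart in this term. In counts simulated from the means and dispersions of these sums, 9% of 200 changes of 1 log2 unit per day were recovered, so most changes of that size would not have been detected.

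Gene length followed the difference as well. Of the tested genes, 8180 matched a single gene of GENCODE M21. The called lower genes had a median span of 6.20 kb from start to end (7.79 kb without ribosomal protein genes), the called higher genes outside the mitochondrial genome 64.1 kb, and all tested genes 26.4 kb. Split into 4 equal groups by span, the genes had median log2 differences of -0.42, -0.18, 0.03 and 0.21 from the shortest to the longest. The order from the shortest to the longest group was the same on each of the 4 days. In cells with at most 6% mitochondrial reads the medians were -0.30, -0.29, -0.24 and -0.20, around a median of -0.26 for all tested genes.

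**Figure D5:**
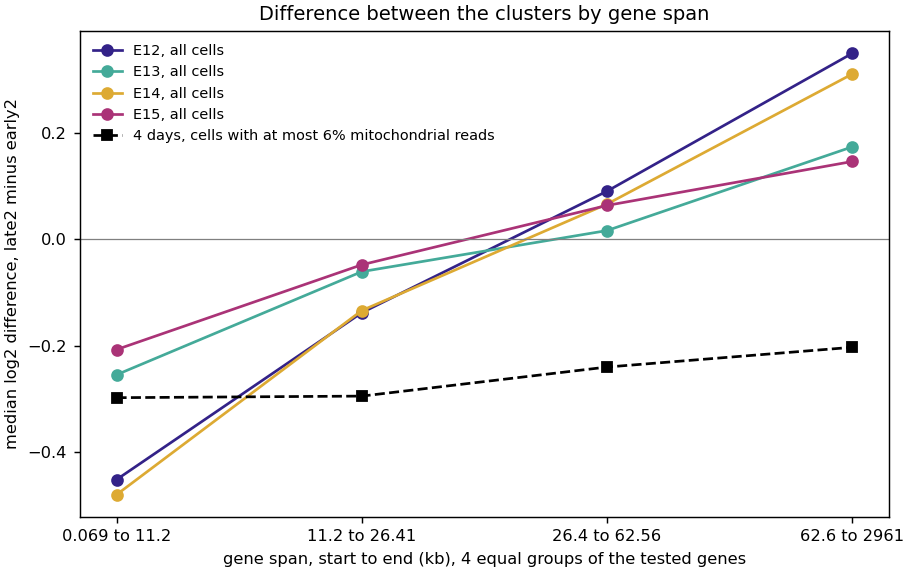
Median log2 difference (late2 minus early2) of 4 equal groups of the tested genes by gene span in kb, with a line for each injection day in all cells and a dashed line for cells with at most 6% mitochondrial reads. The shortest group lies at -0.48 to -0.21 and the longest at 0.15 to 0.35 on the 4 days, and the dashed line runs from -0.30 to -0.20.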

How the data were processed

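The deposited file held whole-number read counts, not normalized, of 16441 genes across 2756 cells, per the file header and the labels. The submitters' processing notes name GRCm38, TopHat2 2.0.13 and UMI-tools without their roles; the counter, annotation and filters are not given in the sources used here. Column totals of the 517 cells were 0.9946 to 1 times the read number in the labels, so counts were taken as reads. No 2 cells had identical counts.

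Counts were summed per cluster and injection day. Genes with at least 10 CPM in at least 4 of 8 sums were tested with the quasi-likelihood test of edgeR 4.0.16 in R 4.3.3, with TMM scaling, day as a block and 3 residual degrees of freedom (2 for the change with day). The Benjamini-Hochberg adjusted p had to be under 0.05. The paired fit had a common biological coefficient of variation of 61.5%. Levels are given as mean ± SD over days. In simulated data, changed genes were drawn at random from all tested genes. The paired test there recovered 4% of 100 log2 differences of 1 and 41% of 100 differences of 2, with 1 false call among 46.

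Members and lists were chosen with earlier results of these data known. The text names up to 12 genes per direction with the largest called difference, a mean of at least 50 CPM and the same sign on all days and after thinning, passing over predicted, ribosomal protein and mitochondrially encoded genes. From each list it names up to 4 called members by smallest p, or else the 2 most abundant; other genes (among them Neurod2, Slc17a7, Gfap, Dcx) were picked as markers or after their values were seen. Some genes that the rule names are not reported here; they stayed in all fits and counts of genes. Of 648 list genes, 621 were in the table. Alternatives were DESeq2 1.42.0, its size factors, other filters, equal weight per cell (limma 3.58.1 on log2(CPM + 1)), thinning, limits on reads or mitochondrial share, run codes as samples, no block and leaving out each day; cells limited in both reads and mitochondrial share were added after seeing the data. Doublets were not called. Tables were handled in Python with pandas and scipy.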

Additional observations from a re-analysis of the deposited data

Results flagged for a closer look

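Among 86 groups of 4 daily values, 7 held 1 day far from the other 3, and chance gives about 1 in 20. Bcl11b had a log2 difference of -2.57 at E14 against 1.65 to 2.00 on the other days, and Tbr1 had 1.74 at E14 against 0.44 to 0.59. Elavl3 stood apart at E15 (-0.37 against 0.22 to 0.31), as did Meis2 (0.72 against 1.82 to 2.03). Hspa8 stood apart at E14 (-0.94 against -0.42 to -0.34). At E13 Nenf had -0.62 against -1.83 to -1.74, and Mbp, an oligodendrocyte gene at 28.8 CPM or less, had -0.28 against -5.52 to -4.97.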

How the results depend on the processing

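With 48 genes higher and 62 lower as reported, the counts were 359 and 502 with DESeq2, 161 and 179 with a filter of 50 CPM, 208 and 393 with equal weight per cell, 122 and 185 after thinning to 100000 reads, and 295 and 462 with run codes as samples. They were 24 and 45 without a filter, 8 and 6 in cells of 100000 to 400000 reads, 1 and 0 in cells with at most 6% mitochondrial reads, and 0 and 0 (306 genes at an unadjusted p under 0.05) in cells limited in both. Leaving out 1 day gave 0 to 8 higher and 0 to 1 lower. Without the pairing by injection day the counts were 53 and 52, of which 36 and 40 were among the genes called with it. DESeq2 size factors gave 46 and 42, and leaving out the mitochondrial genes 39 and 58. For the change with injection day DESeq2 gave 11 genes where edgeR gave 0, also without any 1 day (0 to 0). All 110 called genes kept their direction under each alternative that tested them, except in cells limited in both, where 42 of the 48 higher and all 62 lower genes did; the 6 that turned were Mbtps1 (-0.54), Ogt (-0.30), mt-Nd5 (-0.097), mt-Rnr2 (-0.076), mt-Nd4 (-0.050) and Ank3 (-0.0036). The causes of these shifts were not tested. With mean in place of median, late2 minus early2 was -201802 reads and 3.52 percentage points. With 4 pairs, the simulated recovery of 4% for a log2 difference of 1 limits what an uncalled gene shows.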
